A study of Mus musculus with 24 samples.

Results

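Loss of 1 Kmt2d allele was examined in germinal center (GC) B cells by comparing 4 K mice (Cg1Cre+/-, Kmt2d fl/+) with 4 WT mice (Cg1Cre+/- without a floxed allele), which are 8 of the 24 samples in the series and were taken by the genotype in their labels. The comparison mice were 4 C (Cg1Cre+/-, Crebbp fl/+) and 5 CK (Cg1Cre+/-, Crebbp fl/+, Kmt2d fl/+), so 17 libraries in the peak table were fitted together. All mice carried the Cg1Cre allele, which deletes floxed exons in B cells that enter the GC reaction, were young adults on a C57BL/6J background, and were immunized with sheep red blood cells (SRBC) 10 days before sorting of splenic GC B cells. Chromatin accessibility was measured by ATAC-seq, in which a transposase inserts adapters into open DNA, as counts of fragments in 65483 consensus peaks.

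KMT2D is a histone methyltransferase that places the H3K4 monomethyl mark on enhancers, and it works beside CREBBP and EP300, which acetylate histones at the same elements. It is among the genes most often mutated in follicular lymphoma and diffuse large B-cell lymphoma, tumors that arise from GC B cells, and the mutation usually leaves 1 allele intact. GC B cells cycle between the dark zone, where they divide and mutate their antibody genes, and the light zone, where they receive T-cell help.

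The K and WT libraries held between 17918843 and 21612475 counted fragments, a peak had a median count of 83, and replicate mice correlated at Pearson's r of 0.981 to 0.987 across peaks on the log2 scale, against 0.971 to 0.983 between K and WT mice. The GC B-cell markers Bcl6, S1pr2, Mef2b, Fas and Pax5 each had a peak within 1 kb of a transcription start site (TSS), and none was called. In normalized CPM (counts scaled to library size, mean ± SD, n = 4 mice each), the Bcl6 peak measured 34.0 ± 1.81 for K mice and 31.8 ± 2.35 for WT mice, and the S1pr2 peak 44.3 ± 3.20 and 43.4 ± 1.53. Of the T-cell markers 7 of 9 had no peak (Cd3e, Cd3g, Cd3d, Cd4, Cd8a, Trac and Bcl11b), and the sum over Thy1 and Lck was 26.4 to 30.5 CPM in K and 28.5 to 30.7 in WT. Markers of NK cells had a peak at 1 of 5, those of erythroid cells at 2 of 6, those of macrophages at 5 of 8 and those of plasma cells at 5 of 5, with none called. The macrophage sum was 84.1 to 91.6 CPM in K and 76.7 to 85.6 in WT, the plasma cell sum 248 to 267 in K and 242 to 254 in WT. Signal on the Y chromosome below 5 Mb, 1421 to 1662 counts, was present in 3 of 4 K and 2 of 4 WT libraries, and the others had at most 1 count there. The study describes these mice as female in the text beside its ATAC-seq plots.

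Accessibility at the targeted gene did not separate the genotypes. The 4 peaks over Kmt2d (chr15:98831669-98871204, ENSMUSG00000048154.17) summed to 132, 129, 126 and 124 CPM in K mice and to 129, 129, 122 and 127 in WT mice, which overlapped (exact two-sided permutation p = 0.686, n = 4 and 4). Of the Kmt2d sum, a mean of 68.1 CPM in K and 68.3 in WT came from 1 peak that also covers the start of Prkag1. The peak at the Kmt2d start itself measured 42.4 ± 2.80 CPM in K and 41.9 ± 2.34 in WT. The 5 peaks over Crebbp summed to 52.4, 52.4, 46.0 and 44.9 CPM in K mice and to 45.4, 47.5, 43.3 and 45.1 in WT mice (p = 0.2 by the same exact permutation test). None of these 9 peaks was called, so they give no check of the labels.

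Relative to WT, 424 peaks were more accessible in K (gained) and 542 less accessible (lost) (adjusted p under 0.01, quasi-likelihood test of edgeR). These are 0.647% and 0.828% of all peaks. The median log2 fold change was 0.55 for gained peaks (range 0.23 to 5.37) and -0.64 for lost peaks (range -4.87 to -0.21), against 0.0015 for all peaks. A change above 1.5-fold was seen at 43.6% of the gained and 58.5% of the lost peaks, and above 2-fold at 42 and 95 peaks. All K mice lay on 1 side of all WT mice at 406 of the gained and 537 of the lost peaks, against 11.3% of all peaks. The same mice chose these peaks, so this separation follows largely from the calls and is a description. The counts rested on individual mice: without K replicate 1 there were 85 gained and 131 lost peaks, without WT replicate 4 there were 104 and 150, and without WT replicate 3 there were 119 and 230. Without WT replicate 2 they numbered 250 and 328, and without K replicate 2 they numbered 288 and 342. In simulated counts, 85 of 200 peaks changed 1.5-fold were called. With each library centred within bins of GC content, there were 254 gained (0.388%) and 890 lost peaks (1.36%).

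**Figure D1:**
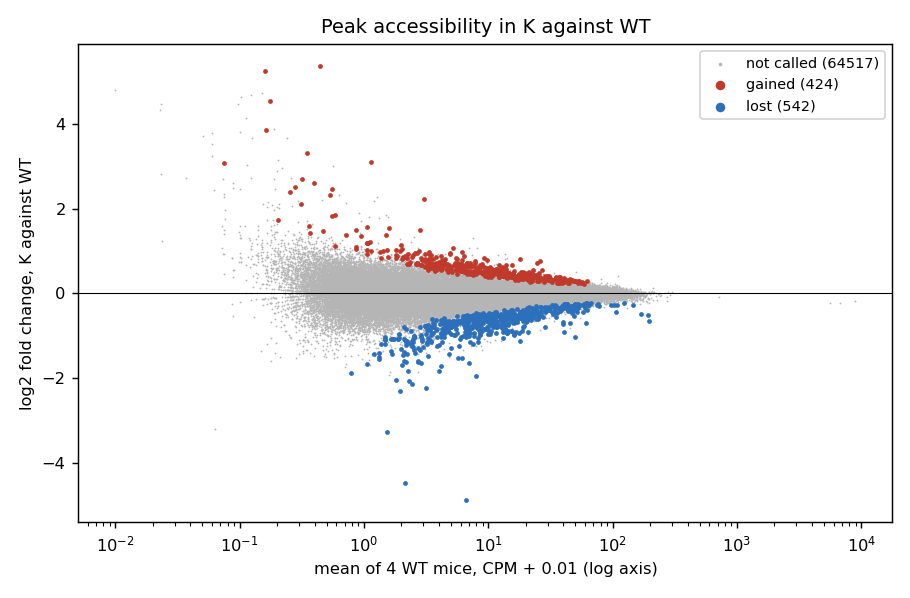
Log2 fold change of K against WT for each peak against its mean CPM in 4 WT mice, with called peaks in red (424 gained) and blue (542 lost). Called peaks of high accessibility changed by small amounts, and the changes above 2-fold lay mostly among peaks of lower accessibility.

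The DNA under the 3 lost and the 3 gained peaks of lowest adjusted p is shown, with at most 1 peak per gene and the Tcf4 peak left out, here because these are the elements that separated K from WT best. Each line gives up to 300 bases without annotated exons nearest the peak centre, plus strand, from the RefSeq GRCm38.p6 genome. Capitals mark matches, on either strand, to 10 motifs: ETS core GGAAGT, octamer ATGCAAA, AP-1 TGANTCA, STAT TTCNNNGAA, IRF repeat, E-box CAGCTG, RUNX TGTGGT, MEF2 CTATTTN, NF-kB GGGNNTTCC and GC box GGGCGG.
Lost, near Grik3, chr4:125481384-125481683: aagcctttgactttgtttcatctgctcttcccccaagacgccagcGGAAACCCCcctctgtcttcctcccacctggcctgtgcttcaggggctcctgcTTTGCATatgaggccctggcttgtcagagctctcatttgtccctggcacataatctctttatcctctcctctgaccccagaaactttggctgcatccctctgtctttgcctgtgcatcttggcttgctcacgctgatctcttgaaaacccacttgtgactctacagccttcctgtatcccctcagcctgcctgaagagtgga
Lost, at Hjurp, chr1:88277723-88278022: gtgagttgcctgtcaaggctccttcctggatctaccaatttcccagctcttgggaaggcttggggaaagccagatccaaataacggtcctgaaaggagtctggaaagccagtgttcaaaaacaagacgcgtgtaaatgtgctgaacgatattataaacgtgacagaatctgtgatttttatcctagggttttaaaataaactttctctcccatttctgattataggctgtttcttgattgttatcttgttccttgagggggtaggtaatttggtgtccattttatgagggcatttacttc
Lost, in Ablim1, chr19:57112858-57113157: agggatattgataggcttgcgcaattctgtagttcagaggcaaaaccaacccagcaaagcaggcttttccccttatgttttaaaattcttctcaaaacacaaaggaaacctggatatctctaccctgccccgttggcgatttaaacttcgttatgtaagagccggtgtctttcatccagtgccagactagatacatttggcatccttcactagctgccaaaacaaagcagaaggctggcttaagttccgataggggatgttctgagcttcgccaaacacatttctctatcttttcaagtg
Gained, near Akap1, chr11:88816669-88816968: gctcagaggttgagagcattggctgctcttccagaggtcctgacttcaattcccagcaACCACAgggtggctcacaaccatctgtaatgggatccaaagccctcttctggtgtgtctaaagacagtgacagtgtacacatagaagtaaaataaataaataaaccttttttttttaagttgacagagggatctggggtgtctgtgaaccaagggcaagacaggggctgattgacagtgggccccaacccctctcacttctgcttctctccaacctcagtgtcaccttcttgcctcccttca
Gained, in Sipa1l3, chr7:29338656-29338955: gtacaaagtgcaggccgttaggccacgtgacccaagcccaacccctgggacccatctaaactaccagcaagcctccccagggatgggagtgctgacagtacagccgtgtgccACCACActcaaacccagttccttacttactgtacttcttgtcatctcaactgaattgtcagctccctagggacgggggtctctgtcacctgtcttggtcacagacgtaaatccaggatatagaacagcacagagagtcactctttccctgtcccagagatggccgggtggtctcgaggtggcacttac
Gained, at Spsb4, chr9:97017767-97017992: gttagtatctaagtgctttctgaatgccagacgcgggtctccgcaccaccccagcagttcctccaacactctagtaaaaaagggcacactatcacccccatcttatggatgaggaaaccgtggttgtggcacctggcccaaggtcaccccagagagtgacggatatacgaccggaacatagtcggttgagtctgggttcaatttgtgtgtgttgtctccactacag
The Grik3 sequence held 1 octamer and 1 NF-kB match, and the Akap1 and Sipa1l3 sequences 1 RUNX match each. The Hjurp, Ablim1 and Spsb4 sequences held none of these motifs. A match is a run of letters and not a measured binding site.

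Farther than 5 kb from a TSS lay 414 of the 542 lost peaks, and 388 of the 890 in GC content bins. The intergenic peak at chr4:125481014-125482052, 8648 bp from the TSS of Grik3, which encodes a kainate glutamate receptor subunit, had the lowest adjusted p. Peaks named for a low p or a large change were taken only where K and WT did not overlap, so the separation of the groups at them was fixed by that choice. The Grik3 peak measured 2.44, 2.66, 1.94 and 1.89 CPM in K mice and 6.44, 7.15, 7.26 and 6.87 in WT mice, with all K mice low (log2 fold change -1.64, SE 0.14, adjusted p = 3.38e-07). In Fam19a4, encoding a secreted chemokine-like protein, an intronic peak (chr6:97015873-97016569) measured 0.584, 0.453, 0.680 and 0.461 CPM in K and 2.98, 2.14, 1.78 and 2.33 in WT. It was low in all K mice (log2 fold change -2.07, SE 0.23, adjusted p = 1.81e-05). An intronic peak of Myo1f, a myosin of blood cells (chr17:33563314-33565115), measured 1.43, 1.19, 1.10 and 1.29 CPM in K and 3.62, 4.18, 4.17 and 4.54 in WT, with K the lower group (log2 fold change -1.71, SE 0.21, adjusted p = 5.32e-05). With DESeq2 the Fam19a4 peak did not pass. The other lost peaks among the 12 of lowest adjusted p included introns of Kif13b, a kinesin (-0.91), and Manba, a lysosomal mannosidase (-1.07), and a peak in Pacs1, a sorting protein (-0.86). Log2 fold changes in CK against the same WT mice were -1.41 near Grik3, -1.77 in Fam19a4 and -1.79 in Myo1f, and in C they were -0.11, -0.50 and -0.60. K differed from C directly at all 3 (edgeR adjusted p = 5.43e-07, 0.000794 and 0.00567).

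The largest lost peak behaved otherwise. It lies in an intron of Ablim1, an actin-binding LIM protein (chr19:57112611-57113403), and measured 0.212, 0, 0.314 and 0.323 CPM in K mice and 7.24, 7.21, 7.73 and 4.21 in WT mice. K mice were near 0 throughout (fitted log2 fold change -4.87, SE 0.43, adjusted p = 5.73e-07), while the log2 fold change was 0.44 in CK and 0.62 in C. The difference of K from CK, which also lack 1 Kmt2d allele, was -5.32 (SE 0.41, adjusted p = 6.75e-08), 1 of 6 peaks (0.00916% of all) at which K and CK differed. Peaks in Sh3pxd2a (chr19:47365021-47366001) and near AC123702.1 (chr19:53475059-53475374), named among the 5 largest gains, lie on the same chromosome. Their log2 fold changes were 3.30 and 3.08 in K, and 1.65 and 1.71 in CK, where neither was called. K against CK was not called at either, and neither passed against WT with DESeq2. The peak near AC123702.1 was close to 0 in all mice, at 0.584, 0.113, 1.05 and 0.600 CPM in K and 0.106, 0.104, 0.0469 and 0 in WT.

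Gains were found at start sites and at intronic and exonic sites, and the gains named in this paragraph also passed in GC content bins. Tcf4, encoding the E protein E2-2, a transcription factor of the B lineage, had 5 gained peaks of 33 assigned to it, more than any other gene, and 0 lost. The peak 684 bp from a Tcf4 TSS (chr18:69498625-69500013) measured 44.0, 38.6, 45.6 and 47.4 CPM in K and 28.7, 28.3, 20.7 and 26.2 in WT, with K the higher group (log2 fold change 0.76, SE 0.082, adjusted p = 1.81e-05). Its other 4 gained peaks rose by 0.47 to 0.97 on the log2 scale. At the start of Spsb4, an adaptor of a ubiquitin ligase, the peak (chr9:97017632-97019599) measured 24.3, 21.6, 21.4 and 19.9 CPM in K and 13.9, 14.9, 13.4 and 12.9 in WT (log2 fold change 0.66, SE 0.078, adjusted p = 4.28e-05). Trim2, a ubiquitin ligase (0.61), Pm20d2, a peptidase (0.64), Nuak1, an AMPK-related kinase (0.79), and Rab40b, a small GTPase (0.45), gained at their start sites by the log2 fold changes given. A peak in Sipa1l3, a regulator of Rap GTPases (chr7:29338240-29339410), measured 10.2, 9.17, 10.4 and 8.63 CPM in K and 4.74, 5.07, 4.59 and 5.37 in WT. The K mice were the higher group (log2 fold change 0.96, SE 0.11, adjusted p = 3.16e-05), and the log2 fold change was -0.13 in C and 0.84 in CK. Peaks within Ret, a receptor tyrosine kinase, Pmepa1, a TGF-beta feedback gene, and Me3, a mitochondrial malic enzyme, had log2 fold changes of 0.44, 1.07 and 0.53.

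**Figure D2:**
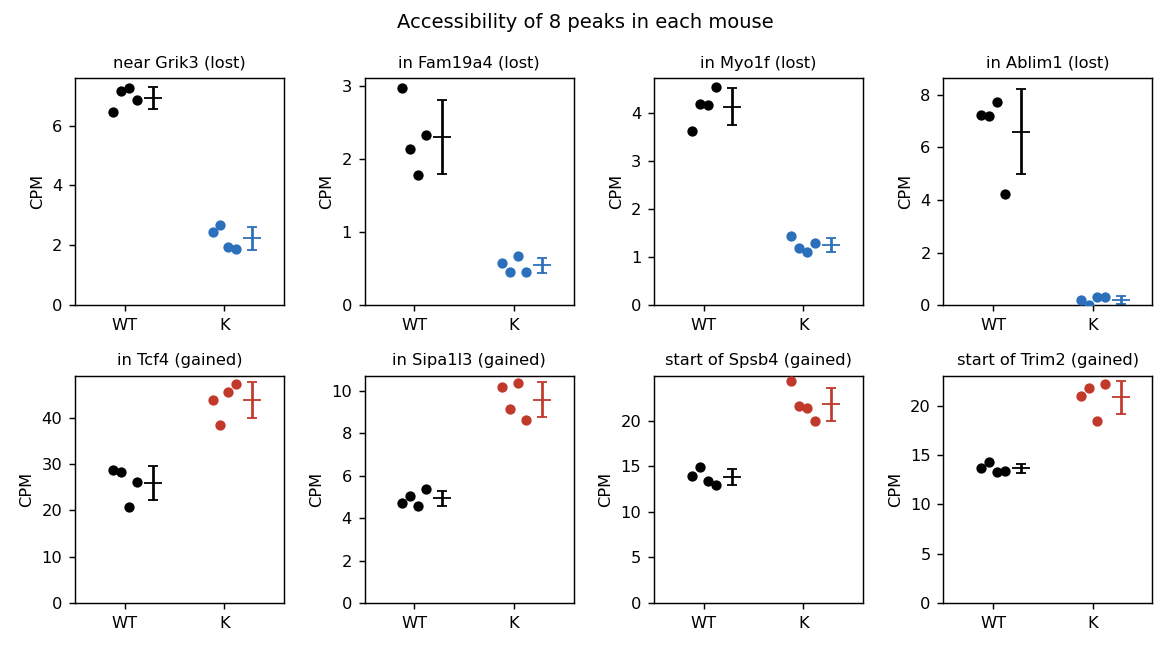
Normalized accessibility (CPM, axes from 0) of 8 named peaks in each of 4 WT (black) and 4 K mice (blue for lost, red for gained), with the mean and SD beside the points. These peaks were picked among those where K and WT do not overlap, and K mice lay near 0 at the Ablim1 peak.

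Several genes, by nearest TSS, had multiple called peaks in 1 direction. Magef1, annotated as a pseudogene, had 5 lost peaks of 7, and all 7 fitted changes were below 0. Hjurp, the chaperone of the centromeric histone CENP-A, and the noncoding Gm31925 had 4 lost of 6 each, and 2 of the 4 at Gm31925 did not pass in GC content bins. Of the lost Hjurp peaks 1 lay at its start and the others in Trpm8 or Mroh2a. Their log2 fold changes were -0.48, -0.70, -0.51 and -0.64 in K and -0.48, -0.65, -0.67 and -0.78 in C, which keep both Kmt2d alleles. K against C was not called at any of the 4. Cobl, an actin nucleator, had 3 lost of 6 with a median log2 fold change over all 6 of -1.95, and 2 of its 3 lost peaks did not pass with DESeq2. Bcat1, a branched-chain aminotransferase, had 2 gained of 5. The 3 peaks gained nearest to the snoRNA Gm22792 included 2 in introns of Sox5, of which 1 did not pass in GC content bins. The other, an intergenic peak, had log2 fold changes of 1.84 in K, 2.14 in C and 2.06 in CK, and K against C was not called there.

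When neighboring distal peaks were summed, losses outnumbered gains. Peaks more than 2500 bp from a protein-coding TSS and near each other formed 10526 joined regions of at least 2 peaks, of which 215 were lost (2.04%) and 64 gained (0.608%). With a joining distance of 5 kb, shorter than the one used, 210 were lost and 44 gained, and with 25 kb, longer than it, 166 and 59. Of the lost regions 55 held no peak that was called alone. The region of 2 peaks near Grik3 measured 3.24, 3.06, 2.51 and 2.58 CPM in K mice and 8.30, 8.67, 9.56 and 9.19 in WT mice (log2 fold change -1.65, SE 0.12, adjusted p = 3.43e-08). A region of 10 peaks over Adap1, an ARF GTPase-activating protein of blood and brain, measured 145, 143, 155 and 146 CPM in K and 191, 182, 185 and 189 in WT, with 3 of its peaks called (log2 fold change -0.34, SE 0.041, adjusted p = 7.84e-05). Regions in Vipr2, a neuropeptide receptor (-0.77), and Pacs1 (-0.89) were also lost, and regions in Me3 (0.62) and Tcf4 (0.68) were gained. Without K replicate 1 there were 72 lost and 17 gained regions, and without WT replicate 4 there were 81 and 16. Without WT replicate 3, 122 were lost and 26 gained. Gained regions numbered 40, 34 and 42 without K replicates 2, 3 and 4, and 30 without WT replicate 2. Lost regions numbered 143 without K replicate 2.

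The 13 gene lists held 1109 peaks, of which 8 were gained and 8 lost (0.721% each), against 0.647% and 0.828% of all peaks, so the lists together were near the background. Among GC transcription factors, 7 of 219 peaks were gained (5 at Tcf4 and 2 at Foxp1, a factor of B-cell development) and 1 was lost. Both Foxp1 peaks overlapped start sites, with log2 fold changes of 0.24 and 0.29. The lost peak lay 8916 bp from Bach2, a repressor of plasma cell differentiation, and measured 37.5, 37.4, 38.6 and 39.9 CPM in K and 47.6, 43.7, 47.3 and 49.0 in WT (log2 fold change -0.29, SE 0.056, adjusted p = 0.00364). It did not pass in GC content bins. A peak in Cd80, a costimulatory ligand for T cells, was gained (0.37). Lost peaks lay in Il21r, the receptor for the T-cell cytokine IL-21 (-0.41), near Jak2, a kinase of cytokine signaling (-0.37), near and in Bmf, a proapoptotic BH3-only protein (-0.48 and -0.38), in Sgk1, a kinase mutated in lymphoma (-0.64 and -0.60), and in the acetyltransferase gene Kat7 (-0.24, not passing in GC content bins).

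No peak was called in the lists for H3K4 methyltransferase complexes (27 peaks), B-cell receptor signalling (133), MHC class II presentation (44), plasma and memory cell fate (96), positioning and chemotaxis (93), cell cycle and growth (65) or somatic hypermutation and repair (32). Of all peaks 1.48% were called, and at that share a single list of this size holds few or no called peaks. These lists are put together here because none held a call, and they were not tested as 1 set. Their medians ranged from -0.086 for chemotaxis and -0.082 for MHC class II to 0.039 for the H3K4 complexes. In B-cell receptor signalling (median -0.051), all K mice lay below all WT mice at 18 of 133 peaks and above at 1, where over all peaks the shares were 5.87% and 5.42%. This list had the most such lower peaks of the 13. Peaks above outnumbered those below for GC transcription factors (16 and 4), cell cycle and growth (8 and 3), H3K4 complexes (2 and 0) and hypermutation and repair (2 and 1).

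By location, the balance of gained and lost calls depended on how libraries were scaled. Within 5 kb of a TSS lay 301 (71.0%) of the gained and 128 (23.6%) of the lost peaks, which are 1.15% and 0.489% of the peaks there. Of all peaks, 40% lay there. Peaks with a TSS inside were gained at 1.88% (95% exact binomial interval 1.66 to 2.12) and lost at 0.262% (0.183 to 0.362), while peaks 10 to 50 kb away were gained at 0.324% and lost at 1.09%. Gained peaks were GC-rich. When all peaks were split into 5 classes by GC content, the GC-richest class held 288 of the gained and 37 of the lost peaks, and the median log2 fold change of all peaks went from -0.092 in the GC-poorest class to 0.088 in the GC-richest. After centring each library within 20 bins of GC content, the shares within 5 kb of a TSS became 41.3% of the gained and 56.4% of the lost peaks, and peaks with a TSS inside were lost at 2.96% and gained at 0.494%. Thus the balance of calls at start sites turned with this setting. That at distal peaks did not: beyond 5 kb, 414 peaks were lost and 123 gained before centring, and 388 and 149 after it. The 189 gained and 420 lost peaks called both ways had 46.0% and 22.6% within 5 kb of a TSS. Among them, 63 gained and 29 lost peaks had a TSS inside, and no called peak changed direction between the 2 scalings.

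**Figure D3:**
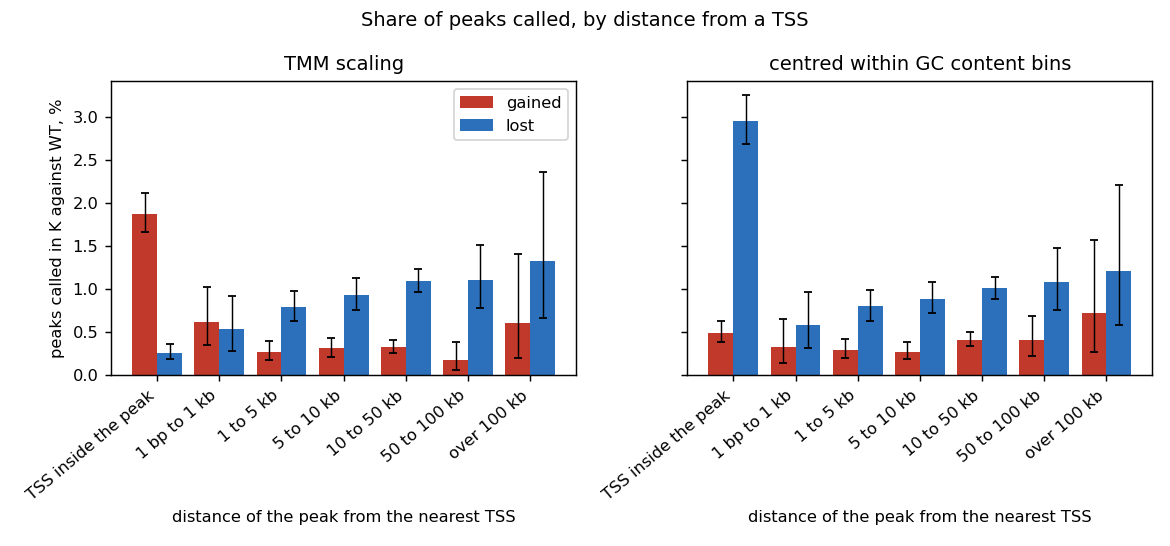
Percent of peaks gained (red) and lost (blue) in K by distance from the nearest TSS, with 95% exact binomial intervals that cover counting error only, under TMM scaling (left) and after centring within GC content bins (right). Gains exceed losses at peaks with a TSS inside on the left (1.88% against 0.262%) and losses exceed gains there on the right (2.96% against 0.494%), while from 1 to 100 kb losses exceed gains in both.

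Peaks within 5 kb of a TSS took up 71.4%, 71.1%, 69.3% and 69.1% of the fragments of K mice and 69.6%, 69.8%, 68.5% and 68.2% of those of WT mice. The groups overlapped (difference 1.23 percentage points, p = 0.171 by an exact permutation test, 0.257 after adjustment for 4 location classes, with 0.0286 the smallest p possible). This test took the mice as unpaired. In both groups replicates 1 and 2 lay above replicates 3 and 4, and at each replicate number the K mouse lay above the WT mouse. A shift within replicate numbers was not tested.

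The 259 gained peaks with a TSS inside had a median GC content of 62.6% and a median of 10.6 CPM in WT mice, against 56.5% and 34.6 CPM over all 13764 such peaks. In the central 300 bp, 65.8% of the 301 gained peaks within 5 kb of a TSS held the GC box (60.1 to 71.1) against 33.0% of all peaks in that class, and 9.30% held the ETS core (6.27 to 13.2) against 24.4%. The 2 sets differ in make-up: 259 of the 301 had a TSS inside, against 13764 of the 26169 in the class. Only 87 of the 301 were also called in GC content bins. All motif shares here are of peaks called under TMM scaling, and none were taken for peaks called both ways. At lost peaks farther away, 29.7% held the RUNX motif (25.3 to 34.4) against 26.0%, 27.3% the ETS core against 27.5%, and 18.8% the MEF2 motif against 17%. Lost peaks within 5 kb of a TSS held the ETS core at 33.6% (25.5 to 42.5) against 24.4% of the class, and the MEF2 motif at 19.5% (13.1 to 27.5) against 10.8%. Gained peaks farther away held the MEF2 motif at 6.50% (2.85 to 12.4) against 17% of all peaks farther away. The last letter of the MEF2 pattern is free, so any CTATTT counts as a match. The median GC content was 59.2% at gained and 47.1% at lost peaks, against 48.2% of all peaks, and the motif shares were not adjusted for it.

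Mice that played no part in the contrast of K with WT gave a second view of the same peaks, because CK differs from C by the Kmt2d allele. In CK against C, the change had the same sign at 408 of the 424 peaks gained in K and at 522 of the 542 lost in K, against 50.3% and 49.7% of all peaks. It passed the threshold in the same direction at 173 gained (40.8%) and 189 lost peaks (34.9%), where 0.907% and 0.77% of all peaks passed in these directions, and at 0 peaks in the opposite direction. The median log2 fold change of CK against C was 0.38 at peaks gained in K and -0.42 at peaks lost in K. In GC content bins, 73 of the 424 (17.2%) and 138 of the 542 (25.5%) passed, against 0.301% and 0.548% of all peaks. The peaks were measured in the same 17-library fit, which shares its estimate of the spread.

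**Figure D4:**
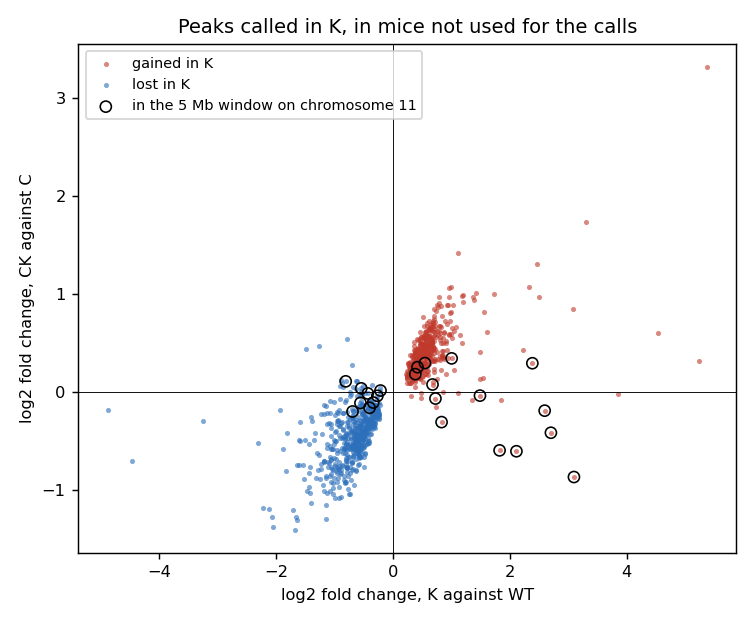
Log2 fold change of CK against C (y) at each of the 424 gained (red) and 542 lost (blue) peaks, against that of K against WT (x), with the called peaks of chromosome 11 from 85 to 90 Mb circled. Most peaks lie in the quadrants of equal sign (408 gained and 522 lost), and the circled peaks lie around 0 on the y axis.

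Single mice could be placed by the median log2 ratio to the WT mean over the called peaks. At gained peaks this was 0.64, 0.50, 0.48 and 0.51 in K mice, 0.17 to 0.23 in C and 0.56 to 0.62 in CK. At lost peaks it was -0.71, -0.61, -0.56 and -0.57 in K mice, -0.20 to -0.057 in C and -0.60 to -0.46 in CK. K replicate 1 was the most changed K mouse in both sets. The K and WT values chose these peaks and are a description.

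**Figure D5:**
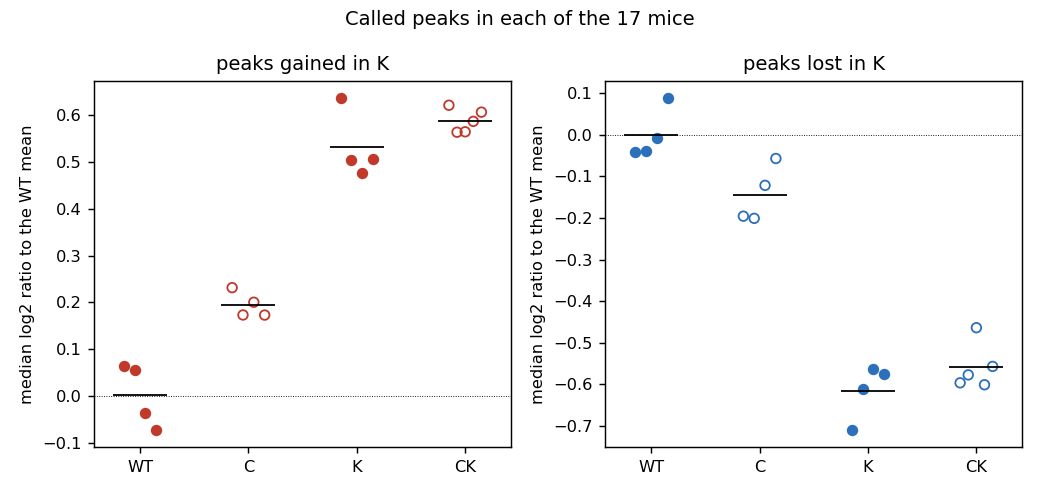
Median log2 ratio to the WT mean over the 424 gained (left) and 542 lost (right) peaks in each of the 17 mice, with the group mean as a bar. Filled points are the WT and K mice whose values chose the peaks, and open points are C and CK mice, where CK lay with K (0.56 to 0.62 and -0.60 to -0.46) and C nearer to WT.

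The 5 Mb window with the most called peaks lay on chromosome 11, and many of its peaks changed in C mice too. This window, from 85 to 90 Mb, held 14 gained and 9 lost peaks of 288 (7.99%), against a median of 1 called peak per window and at most 11 in any other. The peak at chr11:88815911-88817725, 33778 bp from Akap1, a mitochondrial anchor of protein kinase A, measured 8.76, 6.85, 7.27 and 8.63 CPM in K and 2.71, 1.93, 3.66 and 2.88 in WT. Its log2 fold change was 1.49 in K, 1.37 in C, which keep both Kmt2d alleles, and 1.33 in CK. A peak 11100 bp from Mks1, a gene of primary cilia (chr11:87840663-87842115), measured 8.38, 9.63, 10.8 and 10.2 CPM in K and 1.12, 0.836, 1.41 and 1.16 in WT, with log2 fold changes of 3.10 in K, 3.57 in C and 2.71 in CK. Both were high in all K mice. Msi2, encoding an RNA-binding protein of stem cells, held both gained and lost peaks, with the largest gain at 2.70 in K and 2.73 in C. A peak over Mir142b, at the locus of a microRNA of blood cells (chosen after its values were seen), had -0.27 in K, -0.32 in C and -0.35 in CK. Other peaks of the window had smaller changes in C (both chosen after their values were seen): at the start of Ppm1e, a protein phosphatase gene, the log2 fold change was 0.55 in K, 0.32 in C and 0.61 in CK, and in Tspoap1 it was 0.42, 0.11 and 0.37. Over the 14 gained peaks of the window the medians were 1.25 in K, 1.15 in C and 1.2 in CK against WT, and over the 9 lost peaks -0.43, -0.41 and -0.44. In CK against C, 0 of the 23 passed (lowest adjusted p = 0.0242 in edgeR, at Ppm1e), 12 had the sign of the change in K, and the medians were -0.049 and -0.037, where at gained and lost peaks elsewhere they were 0.39 and -0.42. Whether these differences lie in the mutant mice or in the 4 WT mice cannot be told apart.

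A change of like size in C was also measured at some other named peaks. The Hjurp peak (chr1:88276572-88278094), in the window from 85 to 90 Mb of chromosome 1 with 9 lost and 1 gained peak of 265, measured 119, 120, 121 and 125 CPM in K and 169, 170, 166 and 173 in WT. Its log2 fold change was -0.48 in K (SE 0.042, adjusted p = 5.73e-07), -0.48 in C and -0.49 in CK. An intronic peak of Psd3, an exchange factor for ARF6 (chr8:68159735-68160615), which did not pass with DESeq2, had -4.46 in K, -3.24 in C and -3.93 in CK, and the weaker of the called Bcat1 peaks by level had 1.10 in K, 1.10 in C and 1.09 in CK. K against C was not called at Hjurp (adjusted p = 0.964), Psd3 (0.410), Akap1 (0.743) or Mks1 (0.403). The other windows rich in called peaks lay at 20 to 25 Mb of chromosome 16 (11 of 324 peaks), 120 to 125 Mb of chromosome 4 (10 of 208) and 60 to 65 Mb of chromosome 14 (10 of 247).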

How the data were processed

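ATAC-seq libraries of sorted splenic GC B cells came from 17 mice, 1 library each. The authors aligned reads to mm10 with the nf-core pipeline, merged peaks into a consensus set, and deposited raw counts of fragments per peak from featureCounts 2.0.1, without normalization. The table was used as deposited. Peaks were annotated with GENCODE M21 and GRCm38.p6 sequence. No peak had fewer than 10 counts over all libraries.

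Counts were normalized by TMM in edgeR 4.0.16 (R 4.3.3), all 17 libraries were fitted with 1 coefficient per genotype, and each contrast was put to the quasi-likelihood test with Benjamini-Hochberg adjustment (adjusted p under 0.01). CPM are TMM-normalized. Scripts were tested on simulated data: edgeR recovered 85 of 200 peaks changed 1.5-fold and 146 of 200 changed 2-fold. For per-mouse sums, all 70 splits of the mice were enumerated in an exact permutation test, two-sided. Intervals cover counting error only.

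Named peaks were the 12 gained and 12 lost of lowest adjusted p and the 5 of largest change, with K and WT not overlapping (at most 1 of lowest p per gene), peaks of the 5 genes with most calls, the lowest p per gene list, and peaks over Kmt2d and Crebbp. Up to 8 joined regions and 5 windows were named likewise. The members and lists were chosen with earlier results of these data known. Alternatives covered DESeq2 1.42.0, scaling, filters, thresholds, covariates, a replicate block and leaving out each mouse. The result for 1 marker gene is not reported here.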

Additional observations from a re-analysis of the deposited data

Results flagged for a closer look

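In 9 of 146 groups of 4 mice at the named peaks, 1 mouse stood apart from the other three. Chance marks about 1 in 20 such groups. Among WT mice these were 4.21 CPM at the Ablim1 peak (others 7.21 to 7.73), 22.1 at Rab40b (19.1 to 19.6), 6.48 at Sgk1 (7.59 to 7.66), 1.92 and 0.731 at 2 peaks near Gm22792 and 21.8 at Il21r (18.5 to 18.9). Among K mice they were 15.6 CPM at Pm20d2 (others 12.9 to 13.2), 37.7 at a Tcf4 peak (29.3 to 30.0) and 52.8 at Kat7 (49.4 to 49.5).

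The change in K differed from that in another mutant genotype, by a direct contrast in edgeR, at these named peaks. K was below CK at Ablim1 by a log2 difference of -5.32 and below C there by -5.49. K was below C near Grik3 (-1.53), in Fam19a4 (-1.57), in Myo1f (-1.12), in Manba near Oaz2-ps (-1.10), in Kif13b near Gm26225 (-0.93), near 1700016K19Rik (-0.45), in Pacs1 near AC125059.2 (-0.71), at 2 peaks of Cobl (-1.99 and -1.88), near Magef1 (-0.79) and in Il21r (-0.42). K was above C at 4 peaks of Tcf4 (0.51, 0.60, 0.72 and 0.53), in Sipa1l3 near Gm44632 (1.08), at Trim2 (0.45) and Nuak1 (0.61), in Me3 near Gm45793 (0.48), in Pmepa1 near Zbp1 (0.81), in Ret (0.50) and in Sh3pxd2a (3.38). The Sh3pxd2a peak measured 4.40, 0.623, 3.72 and 4.61 CPM in K mice and 0.585, 0.261, 0.328 and 0.166 in WT mice, so K replicate 2 lay near WT, and it did not pass against WT with DESeq2.

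Y chromosome signal, used only in alternative fits, was found in 5 of the 8 K and WT libraries.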

How the results depend on the processing

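No refit reversed the direction of a called peak. Gained and lost peaks numbered 786 and 953 with DESeq2, 254 and 890 in GC content bins (41.3% and 56.4% within 5 kb of a TSS), 260 gained (63.1%) with only K and WT libraries, 1681 and 1845 at an adjusted p under 0.05, 185 (60.0%) and 317 with a change above 1.5-fold, and 75 (44.0%) and 154 with only libraries with Y signal (chosen after seeing the data). Other scalings, filters, chromosomes left out and sex covariates stayed within 1.5 times. With the Y signal below 5 Mb as covariate (also added later) there were 418 and 516. Counting only peaks up to 1 kb from a TSS, the shares were 64.6% and 9.04%, against 24.7% of all peaks, and with protein-coding TSSs 64.2% and 10.3%, against 28.5%. Joined regions gained and lost numbered 254 and 724 at an adjusted p under 0.05, 122 and 422 with DESeq2, and 29 gained with only K and WT libraries. With 1 mouse left out, gained peaks ranged from 85 to 365 (55.3% to 80.8% within 5 kb of a TSS), lost peaks from 131 to 456 (21.6% to 26.9%), gained regions from 16 to 44, lost regions from 72 to 191, the difference in fragment share from 0.838 to 1.62 and the Kmt2d log2 ratio from -0.0056 to 0.027. In the labels, replicates 1 to 4 share only a number. Same-number deviations of K and WT correlated at 0.127, -0.093, 0.002 and 0.092, and different-number ones at -0.162 to 0.144. These correlations cannot tell whether mice of 1 number share a batch, which was not tested. A replicate block gave 974 gained and 1172 lost peaks, and 121 gained and 449 lost regions. It kept 423 of the 424 gained and 541 of the 542 lost peaks. Of the 64 named peaks that passed, 23 did not pass without K replicate 1 and 21 without WT replicate 4. Regions were not refitted in GC content bins. At this depth, spread and number of mice, 85 of 200 simulated 1.5-fold changes were called.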
